A study of Oryza sativa Japonica Group with 3 samples.

Results

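The 10 loci described here encode enzymes and transporters of nitrate and ammonium use in rice, and were chosen by identifier from a list of nitrate reductases, nitrite reductase, glutamine synthetases, glutamate synthases and ammonium transporters. All 10 were found among the 55759 annotated loci, and 8 of them averaged 1 FPKM or more across the libraries. FPKM counts fragments per kilobase of a transcript relative to all mapped fragments, and a locus value here is the sum over its transcripts. The names are those of the list that defines the group, since the deposited tables hold identifiers only.

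Rice seedlings (Oryza sativa, Japonica group, cultivar Xindao-18) of 3 groups were compared, each by 1 RNA sequencing library of whole seedlings sampled after 96 h of culture. Control seedlings came from seed with no ion treatment. Low fluence seedlings came from seed implanted with a nitrogen ion (N+) beam at fluences of 1e+17 and 2e+17 ions/cm2, which the labels mark as without significant damage. High fluence seedlings came from seed implanted at 6e+17 and 8e+17 ions/cm2, marked as with significant damage. The labels print the exponent of these fluences without raising it, and it was read as an exponent. Seedlings of all groups grew on filter paper wetted with sterile water at 28 °C in cycles of 12 h light and 12 h dark, and the protocol names no nitrogen source. Each pool held 50 buds of similar height, and an irradiated library is a mixture of RNA from 2 pools, 10 µg from each. With 1 library a group there is no spread between replicates, so no difference below carries a test, and fewer cells of a type cannot be told apart from less RNA per cell. The labelled tissue could not be checked against marker genes, because the files pair no identifiers with names.

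Plants take up nitrogen as nitrate or ammonium. Nitrate is reduced to nitrite by nitrate reductase in the cytosol, and nitrite to ammonium by nitrite reductase in plastids. Ammonium, whether made inside the cell or imported through ammonium transporters of the AMT1 family, is joined to glutamate by glutamine synthetase, and glutamate synthase then passes the amide nitrogen to 2-oxoglutarate. In rice the cytosolic glutamine synthetases and the NADH-dependent glutamate synthase are known for assimilation in roots and for reuse of nitrogen in growing organs, whereas the plastid glutamine synthetase GS2 and the ferredoxin-dependent glutamate synthase are known for work in green leaves, including recapture of ammonium released by photorespiration.

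As annotated loci alone, the loci spanned a wide range of levels, and their order was much the same in the 3 libraries. Cytosolic glutamine synthetase GS1;1 (LOC_Os02g50240, chromosome 2) was the highest in each library and its relative GS1;2 (LOC_Os03g12290, chromosome 3) the second. Of the annotated loci above 0, GS1;1 exceeded 98.2% in control, 97.8% in low fluence and 97.8% in high fluence seedlings. The ammonium transporter AMT1;1, GS2, the nitrate reductase NIA2, nitrite reductase and the ferredoxin-dependent glutamate synthase followed, with the NADH-dependent glutamate synthase below them. NIA1 and AMT1;2 were under 1 FPKM in every library. NIA2 stood above nitrite reductase in the control, level with it at low fluence, and below both nitrite reductase and the ferredoxin-dependent glutamate synthase at high fluence. This order changed once the adjacent assembled units described below were added. The NIA2 sum was then below the sums for nitrite reductase and the NADH-dependent glutamate synthase in every library, though these units have no gene assignment.

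**Figure D1:**
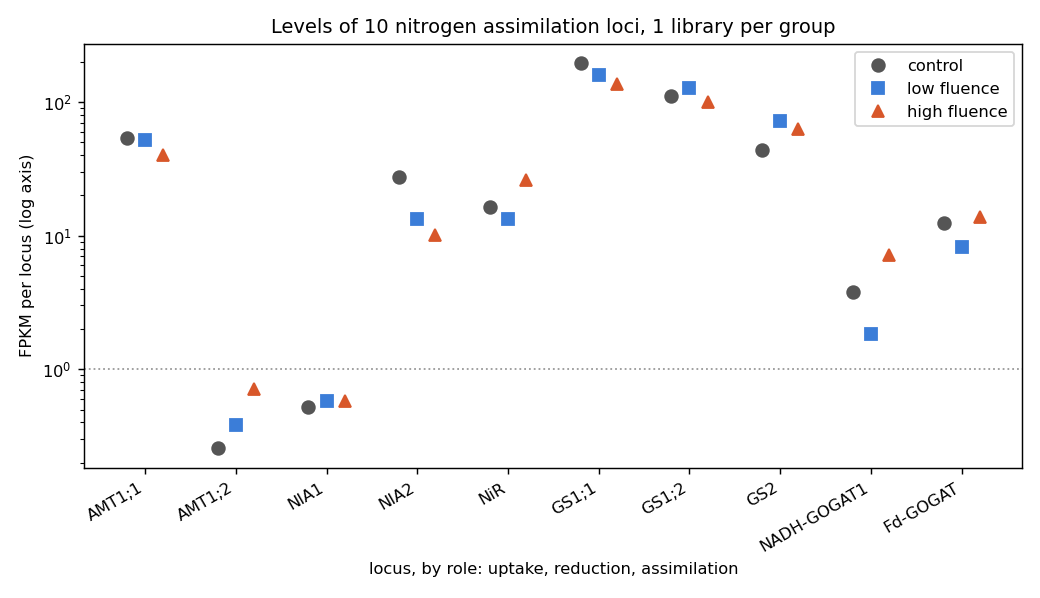
FPKM of the 10 loci on a log axis, 1 point for each of the control, low fluence and high fluence libraries, with a dotted line at 1 FPKM. GS1;1 and GS1;2 lie near or above 100 FPKM in each library, NIA1 and AMT1;2 lie under the line, and NIA2 is lower in both irradiated libraries than in the control.

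The more abundant of the nitrate reductase loci among the 10 was lower than the control in both irradiated libraries. The nitrate reductase locus listed as NIA2 (LOC_Os02g53130, chromosome 2) had 27.2 FPKM in control, 13.4 in low fluence and 10.1 in high fluence seedlings. Both irradiated libraries were thus below the control, and the high fluence library was the lowest. With 1 added to each FPKM, as in all folds and log2 ratios below, which makes folds of weakly expressed loci too small, NIA2 was 1.96-fold lower at low fluence than in the control and 2.54-fold lower at high fluence than in the control. Scaling the libraries to equal FPKM totals, most of which lie outside annotated loci, left NIA2 lower at high fluence than in the control but under 2-fold, at a log2 ratio of -0.50. The other nitrate reductase locus among the 10, NIA1 (LOC_Os08g36480, chromosome 8), had 0.521 FPKM in control, 0.581 in low fluence and 0.578 in high fluence seedlings. These levels are too low for a comparison between libraries. NIA2 therefore held nearly all of the signal of this pair in each library. It stood at 52.3, 23.0 and 17.5 times NIA1 in the control, low fluence and high fluence libraries, ratios that rest on those low NIA1 values.

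Nitrite reductase, the next enzyme of the route, went the other way at high fluence. The NiR locus (LOC_Os01g25484, chromosome 1) had 16.4 FPKM in control, 13.3 in low fluence and 26.0 in high fluence seedlings, so that the high fluence library alone stood above the control. The locus was 1.55-fold higher at high fluence than in the control, or over 2-fold with equal FPKM totals, and 1.22-fold lower at low fluence than in the control. For the annotated loci alone, the level of NIA2 divided by that of NiR was 1.66 in control, 1.00 in low fluence and 0.388 in high fluence seedlings. The higher level at high fluence lay in 1 of the 3 annotated transcripts of NiR. Transcript LOC_Os01g25484.1 had 6.10 FPKM in control, 6.24 in low fluence and 18.1 in high fluence seedlings, or 37.1%, 46.9% and 69.4% of the locus. Transcript LOC_Os01g25484.2 had 10.1, 7.07 and 7.95 FPKM in the same order, and the third transcript had 0.237 FPKM in control seedlings and a listed value of 0 in the other libraries.

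The glutamine synthetase loci moved in different directions. GS1;1 had 195 FPKM in control, 159 in low fluence and 135 in high fluence seedlings. It was lower in both irradiated libraries, by 1.22-fold at low fluence and 1.44-fold at high fluence. Scaling the libraries to equal FPKM totals, however, put the high fluence library above the control. Equal totals over annotated loci alone kept it below, at a log2 ratio of -0.33. GS1;2 had 110 FPKM in control, 127 in low fluence and 99.6 in high fluence seedlings, within 1.15-fold of the control in both as deposited. GS2 (LOC_Os04g56400, chromosome 4), the plastid enzyme, had 43.6 FPKM in control, 72.3 in low fluence and 62.2 in high fluence seedlings. It was higher in both irradiated libraries, by 1.64-fold at low fluence and 1.42-fold at high fluence, the second of which passed 2-fold with equal FPKM totals. The 3 loci summed to 348 FPKM in control, 358 in low fluence and 297 in high fluence seedlings, and GS2 made up 12.5%, 20.2% and 21.0% of that sum. The level of GS2 relative to GS1;1 was 0.224 in control, 0.454 in low fluence and 0.461 in high fluence seedlings. In GS1;1 and GS2 a single annotated transcript held at least 98.97% of the locus in every library.

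**Figure D2:**
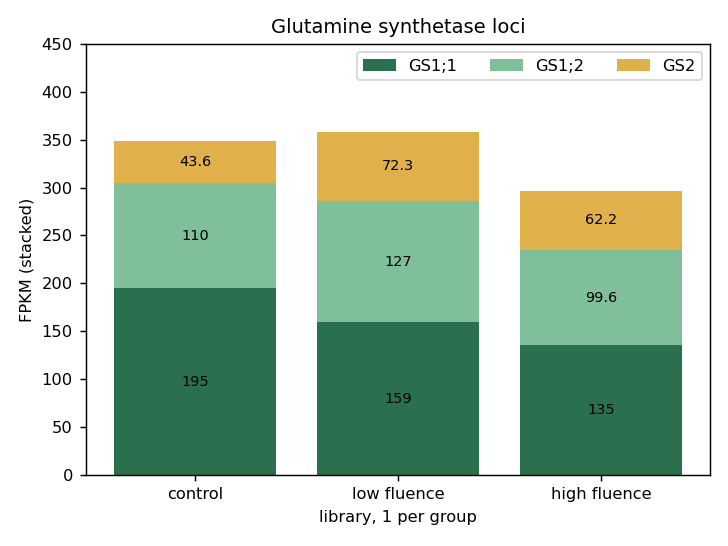
Stacked FPKM of GS1;1, GS1;2 and GS2 in the control, low fluence and high fluence libraries, with each value printed in its bar segment. The GS2 segment is 43.6 in the control and taller in the irradiated libraries, at 72.3 and 62.2, while the GS1;1 segment, in FPKM as deposited, is shorter in both than in the control.

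As annotated loci alone, the glutamate synthases stood lowest at low fluence and highest at high fluence. The NADH-dependent enzyme NADH-GOGAT1 (LOC_Os01g48960, chromosome 1) had 3.76 FPKM in control, 1.82 in low fluence and 7.12 in high fluence seedlings. It was 1.69-fold lower at low fluence than in the control, 1.71-fold higher at high fluence than in the control, or over 2-fold with equal FPKM totals, and 2.88-fold higher at high than at low fluence. The ferredoxin-dependent enzyme Fd-GOGAT (LOC_Os07g46460, chromosome 7) had 12.3 FPKM in control, 8.20 in low fluence and 13.7 in high fluence seedlings. It was 1.45-fold lower at low fluence than in the control and lay close to the control at high fluence, with a log2 ratio of 0.14. For the loci alone, Fd-GOGAT stood at 3.28 times NADH-GOGAT1 in the control, 4.50 times at low fluence and 1.92 times at high fluence. With the adjacent assembled unit described below added, the Fd-GOGAT sum was 33.7, 30.3 and 33.3 FPKM in control, low and high fluence seedlings. The NADH-GOGAT1 sum was 28.8, 33.4 and 43.0, above the Fd-GOGAT sum in both irradiated libraries. Most of each sum came from the unit, which has no gene assignment, so the sums are not established levels of these genes.

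Among the ammonium transporters, AMT1;1 (LOC_Os04g43070, chromosome 4) had 53.7 FPKM in control, 51.9 in low fluence and 39.9 in high fluence seedlings. The low fluence library was close to the control, and the high fluence library was 1.34-fold lower than the control. Scaling to equal FPKM totals again turned the high fluence library to higher. Equal totals over annotated loci alone kept it lower, at a log2 ratio of -0.22. The locus listed as AMT1;2 (LOC_Os02g40710, chromosome 2) had 0.256 FPKM in control, 0.384 in low fluence and 0.706 in high fluence seedlings, at which level no comparison was made. Its name is uncertain, since the reference gene table (RefSeq, assembly ASM3414082v1) gives the synonyms AMT1-2 and AMT1-3 to both of 2 neighbouring genes on chromosome 2. The nearby locus LOC_Os02g40730, which is not among the 10, had 17.6 FPKM in control, 33.8 in low fluence and 16.4 in high fluence seedlings, 1.88-fold higher at low fluence than in the control.

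Of the 10 loci, 6 stand beside an assembled transcript unit in the files, marked CUFF, which has no coordinates or gene assignment and may share reads with the locus. The unit beside NADH-GOGAT1, CUFF.1177, was far above the locus itself, at 25.0 FPKM in control, 31.6 in low fluence and 35.9 in high fluence seedlings. Locus and unit together gave 28.8, 33.4 and 43.0 FPKM in that order. With the unit added the low fluence library was no longer below the control, and the log2 ratio of high to low fluence was 0.36, against 1.53 for the locus alone.

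The sums for NiR, Fd-GOGAT and NIA2 also differed less between libraries than the loci did. For NiR, CUFF.653 had 14.4 FPKM in control, 19.6 in low fluence and 10.8 in high fluence seedlings, high where the locus was low. The NiR sum was 30.8, 32.9 and 36.8 FPKM, and its log2 ratio of high fluence to control was 0.25, against 0.63 for the locus alone. For Fd-GOGAT, CUFF.12458 had 21.4, 22.1 and 19.6 FPKM and the sum was 33.7, 30.3 and 33.3. For NIA2, CUFF.6024 had 0.155 FPKM in control, 1.84 in low fluence and 1.91 in high fluence seedlings, likewise high where the locus was low. The NIA2 sum was 27.4, 15.2 and 12.0 FPKM, with a log2 ratio of high fluence to control of -1.12, against -1.35 for the locus alone. This sum was below that of NiR in every library, the control included. The units beside GS1;1 and GS1;2 held less than 5% of their locus in each library, and no assembled unit stood beside GS2, AMT1;1, NIA1 or AMT1;2. Whether reads were divided between a locus and its neighbouring unit was not tested.

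**Figure D3:**
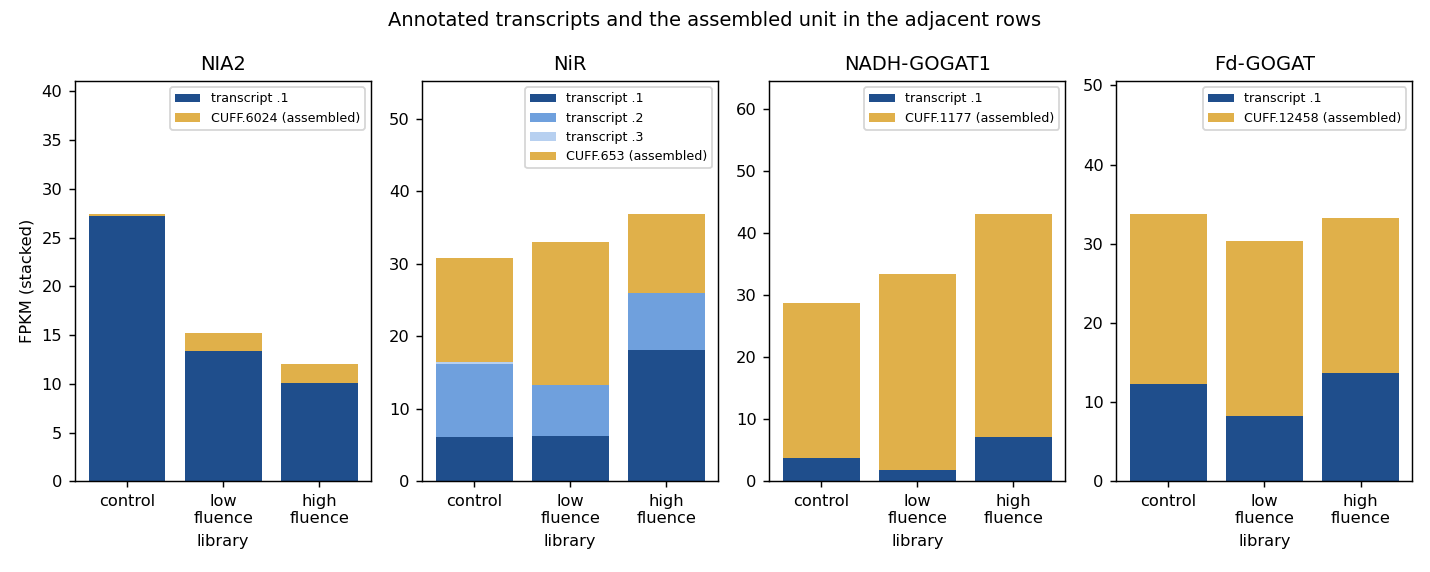
Stacked FPKM of the annotated transcripts (blue) and the assembled unit in the adjacent rows (ochre) for NIA2, NiR, NADH-GOGAT1 and Fd-GOGAT in the control, low fluence and high fluence libraries, each panel on its own axis from 0. The NIA2 stack is lower in both irradiated libraries, at 15.2 and 12.0 against 27.4 in the control, whereas the Fd-GOGAT stacks lie between 30.3 and 33.7.

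Low fluence seedlings were first set against untreated ones, the fluences at which the labels give no significant inhibition of growth. None of the 8 measured loci was at least 2-fold higher or lower at low fluence than in the control, where 3.06% of the 18934 annotated loci at that mean level were higher and 3.52% lower. At a ratio of at least 1.5, GS2 was higher, against 8.49% of all these loci, and NIA2 and NADH-GOGAT1 were lower, against 9.07%. The median log2 ratio of the 8 loci was -0.29, beside -0.052 over the 18934. Of the 8, 6 were below 0, beside 56.0% of the 18934. With the adjacent assembled units added, the median was 0.022 and 4 of the 8 were below 0.

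High fluence seedlings were then set against the same untreated ones. NIA2 was the 1 locus of 8 at least 2-fold lower at high fluence than in the control, against 6.33% of all measured annotated loci, and none was at least 2-fold higher, against 4.23%. With equal FPKM totals, NiR at a log2 ratio of 1.37, GS2 at 1.32 and NADH-GOGAT1 at 1.24 were at least 2-fold higher and none was lower. That scaling raises the FPKM of all loci at high fluence against the control by 0.86 on the log2 scale. The shares of all loci given here are for the values as deposited, and none was computed under that scaling. At a ratio of at least 1.5, NiR and NADH-GOGAT1 were higher, against 10.9% of all, and NIA2 was again the only lower one, against 17.7%. The 8 loci had a median log2 ratio of -0.0016 with 4 above and 4 below 0. Over all measured annotated loci the median was -0.10, and 58.2% were below 0. Of the 9265 annotated loci averaging 10 FPKM or more, the middle 90% had log2 ratios between -1.02 and 0.74, and NIA2 at -1.35 lay outside that range. NADH-GOGAT1 at 0.77 averaged less than 10 FPKM. It lay within the middle 90% of the 18934 loci averaging 1 FPKM or more, between -1.13 and 0.93. The comparisons with control share the same control library, so a chance deviation of that library enters both.

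Last, high fluence seedlings were set against low fluence ones. NADH-GOGAT1 was at least 2-fold higher at high than at low fluence, against 3.61% of all measured annotated loci, and none of the 8 was at least 2-fold lower, against 4.56%. At a ratio of at least 1.5, NADH-GOGAT1, NiR and Fd-GOGAT were higher, against 8.84% of all, and none was lower, against 13.2%. These are the 3 loci whose difference shrank under 1.5-fold once the adjacent assembled unit was added. The remaining 5 loci, NIA2, GS1;1, GS1;2, GS2 and AMT1;1, were lower at high than at low fluence by log2 ratios of between -0.37 and -0.21, and all 5 were higher when libraries were scaled to equal FPKM totals.

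**Figure D4:**
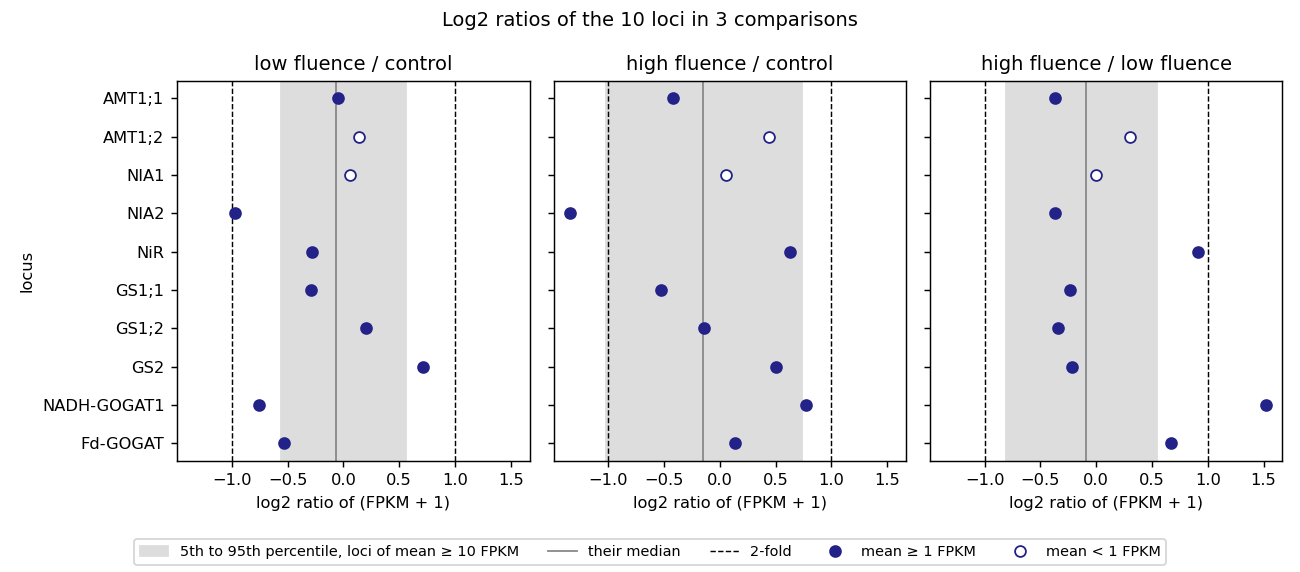
Log2 ratios of (FPKM + 1) for the 10 loci in low fluence over control, high fluence over control and high over low fluence; filled points have a mean of at least 1 FPKM, the grey band spans the 5th to 95th percentile of the 9265 annotated loci averaging 10 FPKM or more, and dashed lines mark 2-fold. NIA2 lies left of the dashed line in the second panel, at -1.35, and NADH-GOGAT1 right of it in the third, at 1.53.

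A further 25 loci were listed by identifier, from general knowledge, as candidates for nitrate and ammonium uptake and assimilation, and neither the files nor the reference table annotates them. Of these, 16 had a mean of at least 1 FPKM. None was at least 2-fold different at low fluence from the control. At high fluence 5 of the 16 were at least 2-fold lower than in the control and none was higher, beside 6.33% and 4.23% of all measured annotated loci, and the median log2 ratio of the 16 was -0.44. With equal FPKM totals none was at least 2-fold lower, 1 was higher and the median was 0.26, and the count lower was 3 to 4 under the other scalings tried. The lowest ratio was that of LOC_Os03g58040, with 61.2 FPKM in control, 46.3 in low fluence and 25.1 in high fluence seedlings. LOC_Os03g62200 followed by level of ratio, with 21.8, 20.4 and 9.10 FPKM. At high against low fluence, 3 of the 16 were at least 2-fold lower and none higher, beside 4.56% and 3.61% of all measured annotated loci, and with equal FPKM totals none was lower and 1 higher. Equal totals raise the FPKM of all loci at high fluence by 0.86 against the control and 1.01 against low fluence, on the log2 scale. The shares of all loci are for the values as deposited and were not computed under any scaling.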

How the data were processed

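Each of the 3 libraries has 1 table of FPKM values per transcript, deposited by the authors, per the file headers. The submitters' processing notes name the aligner TopHat2, version 2.0.5. The FPKM program, genome build, annotation and strand setting were not given in the sources used here. FPKM was summed over the transcripts of each locus and compared without rescaling, by log2 ratios of (FPKM + 1). Loci averaging 1 FPKM or more were taken as measured, and a ratio of 2 or more either way as a difference. Ratio code was checked on control library values multiplied by set folds, and summing code on a small made-up table. The members and lists were chosen with earlier results of these data known. All members are named. Of the 25 further loci, which have no annotation, 2 are named by lowest ratio and LOC_Os02g40730 for its place beside a member.

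None of the member identifiers matched the reference gene table, and 7 of the 10 names did, each on the chromosome its identifier gives. Total counts are not given with FPKM. The lowest values, taken as whole multiples of 1 fragment though not all of them fitted, could not settle the relative depth. Depths 2-fold apart fit ratios of whole numbers nearly alike, so this method cannot tell them apart. At a depth of 0.502 times the control for low fluence, 83.4% of 559 loci lay within 1% of ratios of whole numbers up to 6, and at 0.997 times 82.3%. For high fluence these shares were 78.3% of 983 loci at 1.36 times and 74.4% at 0.682 times. No interval is given, as each group is 1 library. Python 3.11.15, pandas 2.3.3 and numpy 2.4.6 were used.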

Additional observations from a re-analysis of the deposited data

Results flagged for a closer look

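NADH-GOGAT1 (LOC_Os01g48960) differed from the control in opposite directions in the irradiated libraries. Its log2 ratio to control was -0.75 in the low fluence library against 0.77 in the high fluence library, 1.53 apart. With 1 library a group this difference was not tested. The locus was listed at 1.82 FPKM at low fluence, near the minimum for a measured locus, and CUFF.1177 beside it was higher in both irradiated libraries than in the control.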

How the results depend on the processing

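Counts are of the 8 measured loci past 2-fold unless said. Shares of all loci were computed only at 1.5-fold and 2-fold with the values as reported. Low fluence against control: the count lower was 2 with a pseudocount of 0.1 (NIA2 and NADH-GOGAT1), and at 1.5-fold 1 was higher and 2 lower. The median log2 ratio was 0.022 with the adjacent assembled units added. High fluence against control: scaling every library to 1000000 FPKM in all gave 3 higher (NiR, GS2 and NADH-GOGAT1), 0 lower and a median of 0.78, as this scaling shifts the libraries apart by 0.86 on the log2 scale. It turned GS1;1, GS1;2 and AMT1;1 above 0, while NIA2 remained below 0, at -0.50. The count higher was 1 when rescaled over annotated loci (a shift of 0.20) and 1 with the highest transcript of each locus, and 2 at 1.5-fold. The count lower was 0 at 3-fold. High against low fluence: the count higher was 3 when rescaled to the total (median 0.76, shift 1.01), 2 when rescaled over annotated loci, 2 with the highest transcript, 2 with ratios centred on the median of annotated loci (added after the data were seen), and 3 at 1.5-fold. It was 0 with a pseudocount of 5, with adjacent units added, at 3-fold and with a minimum mean of 10 FPKM. Median-of-ratios scaling (a shift of 0.11 for high fluence against control), upper-quartile scaling and no minimum mean left each count and, within 0.2, each median as reported. No call of a single locus changed sign, but calls were only NIA2 in high fluence against control and NADH-GOGAT1 in high against low fluence. Ratios under 2-fold did change sign, such as those of NIA2, GS1;1, GS1;2, GS2 and AMT1;1 in high against low fluence with equal totals. Of 261 values of single loci, 3 that were past 2-fold dropped under it and 12 passed it. No paired analysis was possible because each group has 1 library. Depth limits NIA1 and AMT1;2 most, at under 1 FPKM.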
